A study of Mus musculus with 24 samples.

Results

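A set of 10 genes of the adipocyte lineage, chosen by name, was followed through mouse embryonic fibroblasts (MEFs) lacking Myc, Mlx or both. They were Pparg, Cebpa, Cebpb, Cebpd, Lpl, Cd36, Fabp4, Plin1, Adipoq and Aoc3, out of the 41710 genes listed in each of the 2 deposited tables. They were picked by gene name, with no threshold on a measured value. In primary cells lacking Myc alone, Aoc3 and Lpl were higher and Cd36 and Fabp4 lower than in WT. Aoc3 was highest in primary cells lacking both genes. In immortalized cells Pparg was low in each single knockout and high in WT and double-knockout cells, whereas Lpl was high in MycKO cells alone of the 4 genotypes. Adipoq and Plin1, products of mature adipocytes, were at or near 0 reads in all libraries.

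Fibroblast-like stromal cells, MEFs among them, can be turned into fat cells in culture by hormonal cocktails. C/EBPβ and C/EBPδ, encoded by Cebpb and Cebpd, are induced early in that programme and precede PPARγ and C/EBPα, the factors that maintain each other's expression and switch on the genes of lipid storage. Among their known targets are the secreted lipase Lpl, the fatty acid carrier Fabp4, the fatty acid receptor Cd36, the lipid droplet coat protein perilipin 1 (Plin1) and the hormone adiponectin (Adipoq). Aoc3 encodes a membrane amine oxidase that is abundant in adipocytes and in smooth muscle. Myc dimerizes with Max, and Mlx is the shared partner of MondoA, ChREBP and some Mxd proteins in the parallel Mlx network. Both kinds of dimer bind E-box sequences.

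The study asked how fibroblasts depend on the Myc and the Mlx arms of this extended network. The 4 genotypes compared were each sequenced as 3 primary and 3 immortalized libraries. Cells came from embryos of late gestation with a pair of floxed alleles of Myc, Mlx or both genes and 2 copies of a ROSA26-CreER transgene, whose promoter is active in all tissues. MycKO, MlxKO and DKO cells had the respective loci excised with 500 nM 4-hydroxytamoxifen (4OHT). WT denotes cells of such embryos with intact loci, of which a single line served as control in most cases. Primary cells were exposed to 4OHT or to its ethanol solvent, and immortalized WT controls were kept without 4OHT. Whether the primary WT cells sequenced had received the solvent is not given in the sources used here. Immortalized cells of each genotype had in addition been transduced with a lentivirus for SV40 T-antigen, which inactivates p53 and Rb, and selected with blasticidin. The study calls the libraries of a group biological replicates. Cells of several embryos were pooled within each group, and the sources used here do not say whether the libraries came from separate pools. The p-values therefore measure only the spread between these libraries, which may be technical. Each knockout came from its own floxed line, transduced apart for immortalization. By the study, primary MycKO and DKO cells were growth-arrested when sequenced, and most immortalized MycKO cells were tetraploid or nearly so. Differences that come from the line, growth arrest, ploidy or 4OHT and those due directly to gene loss therefore cannot be told apart. The medium held serum and antibiotics, and no adipogenic cocktail is described.

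Values are given as deposited CPM, read counts adjusted for depth and scaled between libraries by the authors. A difference is on the log2(CPM + 1) scale, which understates the changes of genes near 1 CPM, and is followed by its SE. It is called when limma's Benjamini-Hochberg adjusted p over all genes tested in a table was under 0.05. A gene was tested when it reached 1 CPM in at least 3 of the 12 libraries of its table, which 13101 genes did in primary and 12880 in immortalized cells. Of the 10 lineage genes, 8 were tested in primary cells and 7 in immortalized cells. Primary and immortalized tables were scaled apart, and they were not tested against each other.

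The libraries held between 15986856 and 20966163 reads on genes, and 3 reads corresponded to between 0.145 and 0.196 CPM. Myc stood at 93.9 ± 5.46 CPM (SD, n = 3) in primary WT and at 26.5 ± 0.563 CPM in primary MycKO cells, and Mlx at 23.7 ± 2.84 CPM in primary WT and 13.5 ± 0.480 CPM in primary MlxKO cells. The deletions leave exons of both genes in place, on which reads can still count. What part such reads, or cells with intact alleles, had in the remaining signal was not tested. In immortalized DKO cells Myc had fallen to 6.01 ± 1.89 CPM, while Mlx, at 16.8 ± 1.96 CPM against 23.0 ± 2.34 CPM in WT, did not pass the test (limma adjusted p = 0.0694). The DKO and WT libraries did not overlap for Mlx. It was called lower in immortalized MlxKO than in WT (-0.71 ± 0.16, limma adjusted p = 0.00471) and in DKO than in MycKO cells (-0.56 ± 0.16, limma adjusted p = 0.0183). One immortalized WT library, library 4, stood apart. Its correlation with the other WT libraries over all genes was 0.985 and 0.986, against 0.998 between those 2, and it held 177 CPM of Myc against 48.1 and 39.9 CPM. The differences of lineage and list genes from immortalized WT cells are for this reason given with this library, and those that were called also without it. The 10 fibroblast markers, such as Col1a1 and Dcn, summed to between 42497 and 58096 CPM in primary and between 18288 and 34339 CPM in immortalized libraries, with none at 0. The 15 macrophage markers, such as Csf1r and Adgre1, summed to between 63.1 and 729 CPM in primary and between 5.80 and 12.4 CPM in immortalized libraries. Because whole cultures were sequenced, fewer cells of a type and less RNA per cell cannot be told apart.

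The promoters of Aoc3, Lpl, Pparg and Cebpa are shown here because these 4 genes carry the largest genotype differences or head the programme. Each run covers the 250 bases before the start of the gene's canonical transcript, on GRCm39 with GENCODE vM39, written 5′ to 3′ along the transcribed strand, which was the plus strand for all 4. Aoc3 is at chr11:101221120-101221369, Lpl at chr8:69332893-69333142, Pparg at chr6:115339003-115339252 and Cebpa at chr7:34818478-34818727. Capitals mark the single match to TTGCNNAA, a C/EBP-type sequence.
Aoc3: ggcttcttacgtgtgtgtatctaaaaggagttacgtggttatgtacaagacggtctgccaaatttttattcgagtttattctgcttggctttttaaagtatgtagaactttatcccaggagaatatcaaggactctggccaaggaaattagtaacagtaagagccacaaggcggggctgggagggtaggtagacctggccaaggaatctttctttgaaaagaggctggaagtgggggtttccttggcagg
Lpl: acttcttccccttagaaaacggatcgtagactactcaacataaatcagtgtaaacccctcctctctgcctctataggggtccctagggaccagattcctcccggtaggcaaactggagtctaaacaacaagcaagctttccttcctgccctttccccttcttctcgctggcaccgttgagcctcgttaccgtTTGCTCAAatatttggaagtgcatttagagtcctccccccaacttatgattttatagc
Pparg: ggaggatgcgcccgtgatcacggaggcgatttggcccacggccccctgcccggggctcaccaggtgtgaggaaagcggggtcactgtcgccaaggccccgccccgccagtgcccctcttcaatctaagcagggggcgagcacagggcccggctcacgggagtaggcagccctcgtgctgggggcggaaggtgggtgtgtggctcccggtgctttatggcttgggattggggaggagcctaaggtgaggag
Cebpa: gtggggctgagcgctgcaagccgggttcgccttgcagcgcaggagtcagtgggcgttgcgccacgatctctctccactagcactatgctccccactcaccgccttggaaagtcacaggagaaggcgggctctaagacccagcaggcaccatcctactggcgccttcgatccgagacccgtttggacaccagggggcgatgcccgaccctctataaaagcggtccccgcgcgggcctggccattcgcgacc
The E-box CACGTG, the sequence that Myc and Mlx dimers bind, was searched on both strands together with TTGCNNAA and with the PPAR-type direct repeat, 2 copies of AGGTCA with any 1 base between them. None of the 10 lineage promoters held CACGTG, which was present in 6.26% of 21757 promoters of the same length. TTGCNNAA was found in 1 of the 10, that of Lpl, 58 bases before the start, and in 9.34% of all promoters. The direct repeat was found in none of the 10 and in 0.0368% of all promoters. A window without a match says only that the letters are not there.

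The lineage genes differed widely in level. Per kilobase of merged exons, Cebpb had the highest level of the 10 genes in primary WT cells, 105.6 CPM per kb, followed by Cebpd at 12.1, Lpl at 4.47, Cebpa at 4.19 and Fabp4 at 1.65 CPM per kb. Pparg, Aoc3 and Cd36 lay at 0.524, 0.521 and 0.451 CPM per kb. With the canonical transcript's length instead, Lpl came to 13.3 CPM per kb and moved ahead of Cebpd. Fabp4 came to 6.03 CPM per kb and moved ahead of Cebpa. Cd36 came to 1.63 CPM per kb and moved ahead of Pparg at 1.33 and Aoc3 at 0.571 CPM per kb. Cebpb remained first.

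**Figure D1:**
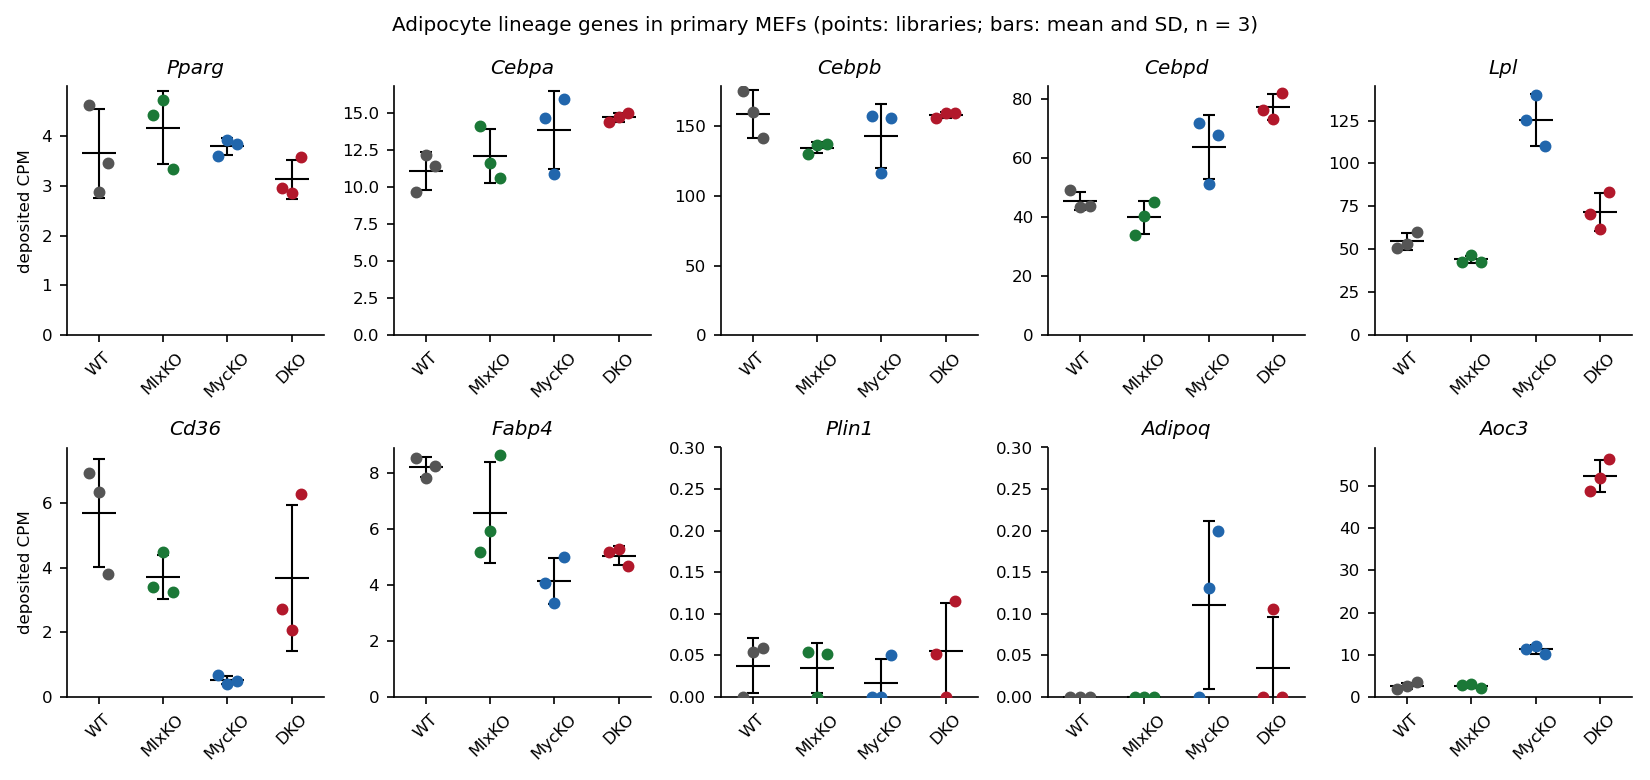
Deposited CPM of the 10 lineage genes in primary MEFs, by genotype; points are libraries, and bars are the mean and SD of 3 libraries. Aoc3 lies between 49.0 and 56.4 CPM in DKO and under 3.5 CPM in WT and MlxKO libraries, and Adipoq and Plin1 stay at or under 0.2 CPM.

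Among the early factors in primary cells, Cebpd was higher with Myc lost and Cebpb was not. Cebpd stood at 48.9, 43.4 and 43.7 CPM in the WT libraries, at 33.9, 40.4 and 45.2 CPM in MlxKO, at 71.8, 51.3 and 67.6 CPM in MycKO and at 76.2, 73.1 and 81.8 CPM in DKO. Every MycKO library lay above the WT libraries and every DKO library above the MycKO libraries, while WT and MlxKO overlapped. The difference from WT was 0.47 ± 0.12 in MycKO (limma adjusted p = 0.00377) and 0.75 ± 0.12 in DKO cells (limma adjusted p = 4.91e-05), and -0.19 ± 0.12 in MlxKO cells (limma adjusted p = 0.341). DKO against MycKO came to 0.29 ± 0.12 and missed the threshold (limma adjusted p = 0.0907). Cebpb ranged from 117 to 175 CPM over the 12 libraries, and limma called none of its differences. DKO lay above MlxKO by 0.23 ± 0.10, just short of a call in limma (adjusted p = 0.0578) and called by edgeR (adjusted p = 0.0408) and DESeq2 (adjusted p = 0.0309). Its level in DKO cells, 158 ± 2.09 CPM, was within 1 CPM of that in WT cells, 159 ± 17.0 CPM, with a 95% interval of the log2 difference from -0.21 to 0.21. Cebpb overlaps Peds1 and Cebpd overlaps Spidr on the other strand, and whether the counting used the strand is not given in the sources used here.

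Pparg, the master factor of fat cell formation, was low and flat in primary cells. It stood at 4.63, 2.88 and 3.45 CPM in WT, at 4.42, 4.72 and 3.34 CPM in MlxKO, at 3.60, 3.92 and 3.84 CPM in MycKO and at 2.96, 2.85 and 3.57 CPM in DKO libraries. The 3 knockouts overlapped WT. The differences from WT ran from -0.16 ± 0.16 in DKO to 0.16 ± 0.16 in MlxKO cells, and their 95% intervals spanned -0.49 to 0.49 in all. These levels rested on 53 to 83 reads per library. Cebpa, its partner, stood at 9.65, 12.1 and 11.4 CPM in WT and at 14.4, 14.7 and 14.97 CPM in DKO libraries, with no overlap. Its difference in DKO was 0.39 ± 0.14 (limma adjusted p = 0.0258), and the call was lost without WT library 1 (limma adjusted p = 0.114), without any 1 of the DKO libraries, with no filter on low values and with scaling by library totals. MycKO libraries, at 14.6, 10.9 and 15.9 CPM, and MlxKO libraries, at 14.1, 11.6 and 10.6 CPM, overlapped WT.

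Lpl, the lipase that frees fatty acids from circulating triglyceride, rose with the loss of Myc and less so with the loss of both genes. The WT libraries held 50.7, 53.4 and 60.0 CPM, the MlxKO libraries 42.9, 46.7 and 42.8 CPM, the MycKO libraries 125, 140 and 110 CPM and the DKO libraries 70.5, 61.7 and 83.7 CPM. The 4 groups did not overlap, in the order MycKO, DKO, WT, MlxKO. Lpl rose by 1.18 ± 0.10 in MycKO (limma adjusted p = 2.44e-07) and by 0.38 ± 0.10 in DKO cells (limma adjusted p = 0.00610). DKO cells held less than MycKO cells, by -0.79 ± 0.10 (limma adjusted p = 3.38e-05). The lower level in MlxKO, -0.30 ± 0.10, was not called (limma adjusted p = 0.0848). Angptl4, a secreted inhibitor of Lpl, fell in MlxKO cells from 23.2 to 7.89 CPM, by 1.46 ± 0.15 (limma adjusted p = 1.72e-05).

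Fabp4, the cytosolic carrier of fatty acids in adipocytes and also in macrophages, was lower in MycKO and DKO cells than in WT. The WT libraries held 8.52, 7.82 and 8.24 CPM, the MlxKO libraries 5.17, 5.92 and 8.63 CPM, the MycKO libraries 4.05, 3.34 and 4.98 CPM and the DKO libraries 5.16, 5.28 and 4.66 CPM. MycKO and DKO libraries all lay below WT, whereas MlxKO overlapped it. Fabp4 fell by 0.86 ± 0.16 in MycKO (limma adjusted p = 0.000357) and by 0.61 ± 0.16 in DKO cells (limma adjusted p = 0.00433). The difference between DKO and MycKO, 0.25 ± 0.16, was not called (limma adjusted p = 0.306). That of DKO from MlxKO, -0.30 ± 0.16, was not called either (limma adjusted p = 0.126), and these libraries overlapped.

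Cd36, a fatty acid receptor of adipocytes, macrophages and capillary endothelium, showed the steepest loss. It stood at 6.94, 6.35 and 3.80 CPM in WT, at 3.41, 4.49 and 3.24 CPM in MlxKO, at 0.665, 0.392 and 0.498 CPM in MycKO and at 2.71, 2.06 and 6.28 CPM in DKO libraries. The MycKO libraries lay apart from all others, and those of the other genotypes overlapped. Cd36 fell by 2.11 ± 0.26 in MycKO cells (limma adjusted p = 6.71e-06), from 305 reads in the 3 WT libraries to 28 reads. DKO exceeded MycKO by 1.52 ± 0.26 (limma adjusted p = 0.000406), while its difference from WT, -0.59 ± 0.26, was not called (limma adjusted p = 0.0707). Macrophage markers differed in the same direction. All 15 were called lower in MycKO cells, beside 21.9% of all genes, and all 15 in DKO cells, beside 25.5%. Between DKO and MycKO 12 were called higher in DKO, where 21.5% of all genes were called in either direction, and in MlxKO cells limma, edgeR and DESeq2 called none, with 4 at an unadjusted p under 0.05. Their summed level was 729, 580 and 372 CPM in the WT, 398, 494 and 444 CPM in the MlxKO, 95.9, 63.1 and 71.8 CPM in the MycKO and 148, 133 and 295 CPM in the DKO libraries. The DKO library with the most Cd36, library 15, was the one with the most macrophage marker RNA. The WT library with the least Cd36, library 3, was the one with the least. In WT, MycKO and DKO cells the order of the 3 libraries by Cd36 was the same as by the marker sum. In MlxKO cells library 6 held the most of both, while the least Cd36 was in library 7 and the smallest marker sum in library 5. Fabp4 went the other way in DKO cells, where library 15 held the least, 4.66 CPM. None of the 15 markers was at 0 in a primary group. The 10 endothelial markers summed to between 8.70 and 27.8 CPM in primary libraries, highest in WT and lowest in MycKO. The part of these cells in the Cd36 and Fabp4 differences was not tested.

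**Figure D2:**
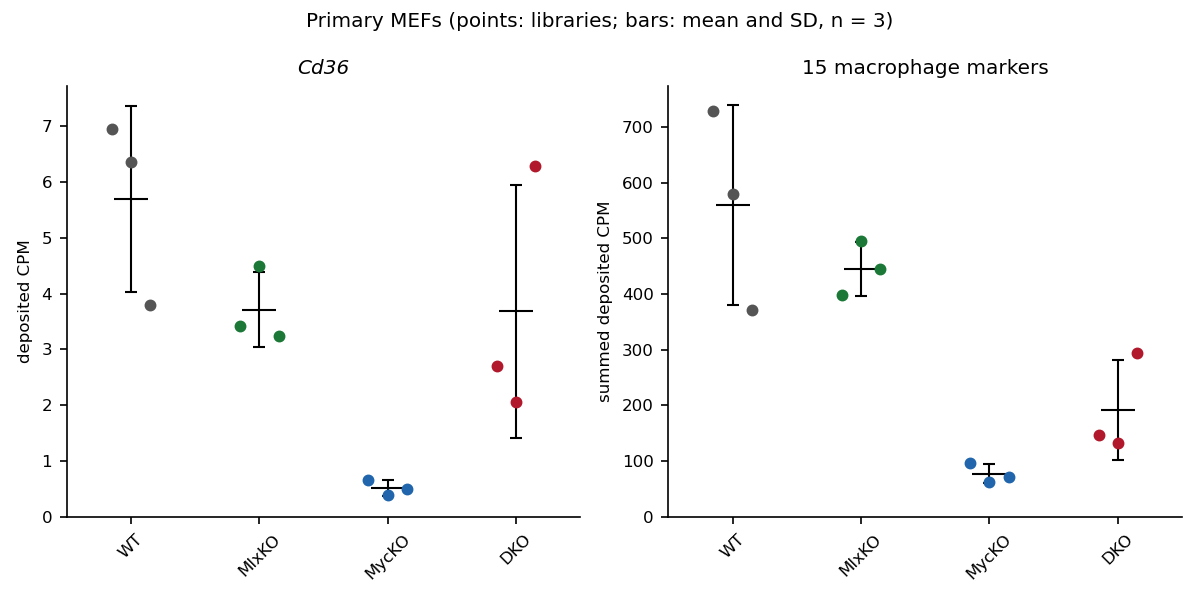
Left, deposited CPM of Cd36, and right, the summed CPM of 15 macrophage markers, by genotype in primary MEFs; points are libraries, and bars are the mean and SD of 3 libraries. Both are lowest in the 3 MycKO libraries, and DKO library 15 is the highest of its group in both, at 6.28 and 295 CPM.

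The mature products were not detectable at this depth or close to it. Adipoq had no read in primary WT and MlxKO cells, 6 reads in MycKO cells and 2 reads in a single DKO library. Plin1 had 3 reads in DKO, 2 each in WT and MlxKO and 1 in MycKO cells. Neither passed the filter on low values, and no fold is given.

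Aoc3 had the largest difference of the lineage genes in primary cells. The WT libraries held 1.81, 2.44 and 3.39 CPM, the MlxKO libraries 2.88, 2.93 and 2.05 CPM, the MycKO libraries 11.4, 12.1 and 10.2 CPM and the DKO libraries 49.0, 51.9 and 56.4 CPM. WT and MlxKO overlapped, MycKO lay above both and DKO above all. Aoc3 rose by 1.81 ± 0.15 in MycKO (limma adjusted p = 1.22e-07) and by 3.93 ± 0.15 in DKO cells (limma adjusted p = 1.17e-11), which is a ratio of the mean CPM of 4.41 and 20.6. It was 2.13 ± 0.15 higher in DKO than in MycKO (limma adjusted p = 3.45e-08), a ratio of 4.67. In MlxKO cells its difference from WT was 0.04 ± 0.15 (limma adjusted p = 0.897), with a 95% interval from -0.28 to 0.37. The calls of Aoc3 in primary cells held with each library left out in turn and under the other settings tried.

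Aoc3 lies on chromosome 11 (101221370 to 101232962, GRCm39), 238.3 kb from the end of Mlx, so that it lies near the floxed Mlx allele. It shares 3.42% of its 50-base transcript stretches with other genes, mostly its neighbour Aoc2, whose reads the counting could exchange with it. The 8 smooth muscle markers summed to between 5722 and 6349 CPM in WT, 4598 and 5176 CPM in MlxKO, 9097 and 10280 CPM in MycKO and 9856 and 10243 CPM in DKO libraries. Of them 5 were called higher and 1 lower in MycKO cells, where 20.4% of all genes were higher and 21.9% lower. In DKO cells 6 were higher and 1 lower, beside 24% and 25.5%, and in MlxKO cells 4 were lower, beside 5.14%. Between DKO and MycKO cells 5 were called higher, beside 21.5% of all genes called in either direction, with overlapping sums. The part of smooth muscle-like cells in the Aoc3 difference was not tested.

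In immortalized cells Pparg, flat in primary cells, separated the genotypes. Pparg stood at 26.6, 36.5 and 16.9 CPM in the WT libraries, at 4.79, 3.003 and 3.32 CPM in MlxKO, at 9.05, 8.68 and 10.8 CPM in MycKO and at 23.9, 31.4 and 34.6 CPM in DKO. WT and DKO overlapped, and both single knockouts lay below them and apart from each other. Pparg fell by 2.51 ± 0.25 in MlxKO (limma adjusted p = 6.00e-05) and by 1.34 ± 0.25 in MycKO cells (limma adjusted p = 0.00101). In DKO cells its difference from WT was 0.21 ± 0.25 (limma adjusted p = 0.566), with a 95% interval from -0.32 to 0.75. Without WT library 4, the lowest of the 3, the differences came to -2.79 for MlxKO, -1.62 for MycKO and -0.07 for DKO cells. DKO exceeded MlxKO by 2.72 ± 0.25 (limma adjusted p = 1.48e-05) and MycKO by 1.55 ± 0.25 (limma adjusted p = 0.000531), comparisons that use no WT library.

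**Figure D3:**
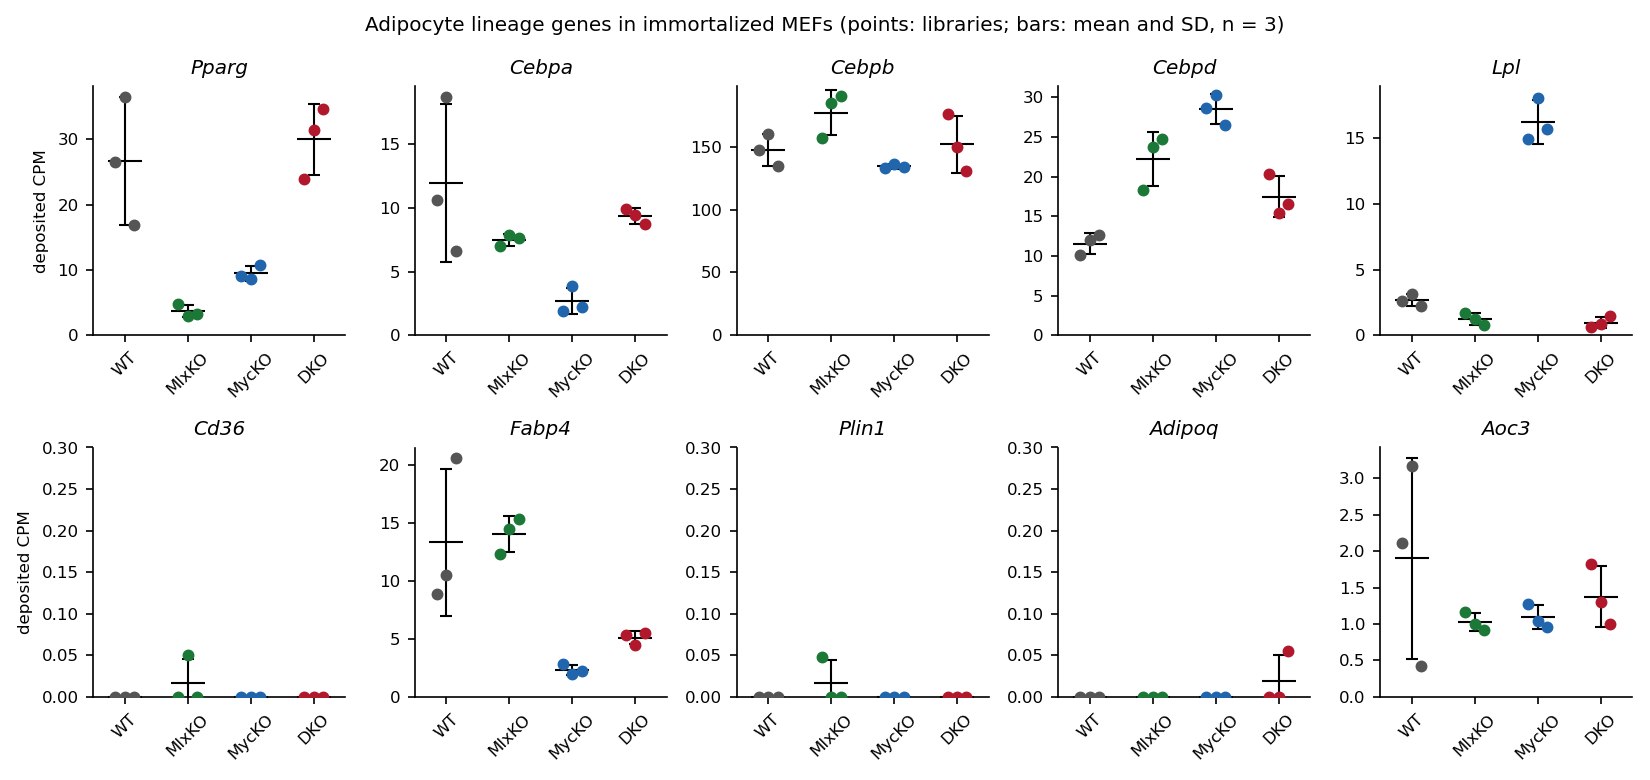
Deposited CPM of the 10 lineage genes in immortalized MEFs, by genotype; points are libraries, and bars are the mean and SD of 3 libraries. Pparg is high in WT and DKO and low in MlxKO and MycKO, Lpl is high in MycKO only, and Cd36, Plin1 and Adipoq have 1 read each.

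Cebpa was low in MycKO cells. Its levels were 10.6, 18.7 and 6.57 CPM in WT, 6.97, 7.86 and 7.60 CPM in MlxKO, 1.94, 3.84 and 2.25 CPM in MycKO and 9.89, 9.45 and 8.73 CPM in DKO libraries. MycKO lay below all other groups, and WT overlapped MlxKO and DKO. Cebpa fell by 1.74 ± 0.29 in MycKO cells (limma adjusted p = 0.000455), and by 2.07 without WT library 4, and DKO exceeded MycKO by 1.53 ± 0.29 (limma adjusted p = 0.00168). The MlxKO difference of -0.50 ± 0.29 was not called (limma adjusted p = 0.179), and came to -0.84 without WT library 4, past the threshold (limma adjusted p = 0.00933).

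Cebpd was lowest in WT. The WT libraries held 10.1, 12.0 and 12.6 CPM, the MlxKO libraries 18.3, 23.7 and 24.7 CPM, the MycKO libraries 28.7, 30.3 and 26.5 CPM and the DKO libraries 20.4, 15.4 and 16.6 CPM. WT lay below all 3 knockouts. Cebpd rose by 1.24 ± 0.15 in MycKO (limma adjusted p = 5.40e-05), by 0.88 ± 0.15 in MlxKO (limma adjusted p = 0.00134) and by 0.55 ± 0.15 in DKO cells (limma adjusted p = 0.0265). The DKO call was lost without WT library 2, without DKO library 13 or 15 and when only WT and DKO entered the fit, with limma adjusted p between 0.0601 and 0.117. Without WT library 4 the rise came to 1.29 for MycKO, 0.94 for MlxKO and 0.61 for DKO cells. Cebpb, at 131 to 190 CPM, was not called in any comparison by limma.

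Lpl was high in immortalized MycKO cells and low elsewhere. The WT libraries held 2.58, 3.16 and 2.25 CPM, the MlxKO libraries 1.69, 1.25 and 0.765 CPM, the MycKO libraries 14.9, 18.1 and 15.8 CPM and the DKO libraries 0.626, 0.848 and 1.44 CPM. MycKO lay above WT, and WT above the overlapping MlxKO and DKO groups. Lpl rose by 2.24 ± 0.20 in MycKO cells (limma adjusted p = 4.84e-06), a 6.11-fold ratio of the mean CPM, and by 2.16 without WT library 4. It fell by 0.73 ± 0.20 in MlxKO (limma adjusted p = 0.0147) and by 0.91 ± 0.20 in DKO cells (limma adjusted p = 0.00985), and by 0.81 and 0.99 without WT library 4. The last 2 calls were lost without MlxKO library 7 (limma adjusted p = 0.073) and without DKO library 13 (limma adjusted p = 0.0519), respectively. DKO was below MycKO by -3.15 ± 0.20 (limma adjusted p = 3.67e-07), so that Lpl was lower in DKO than in MycKO cells in both tables.

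Fabp4 was lower in MycKO and DKO cells than in WT here too. It stood at 8.84, 10.5 and 20.6 CPM in WT, at 12.3, 14.5 and 15.3 CPM in MlxKO, at 2.81, 1.98 and 2.19 CPM in MycKO and at 5.35, 4.47 and 5.47 CPM in DKO libraries. MycKO and DKO lay below WT and apart from each other, whereas MlxKO overlapped WT. Fabp4 fell by 2.03 ± 0.25 in MycKO (limma adjusted p = 4.81e-05) and by 1.15 ± 0.25 in DKO cells (limma adjusted p = 0.00804), and by 1.69 and 0.81 without WT library 4, the highest of the 3. In MlxKO cells its difference from WT, 0.15 ± 0.25, was not called (limma adjusted p = 0.639), and came to 0.49 without WT library 4, past the threshold (limma adjusted p = 0.0247). The DKO call was lost when only WT and DKO entered the fit (limma adjusted p = 0.0646). DKO exceeded MycKO by 0.88 ± 0.25 (limma adjusted p = 0.0177), a call lost in 4 of the 12 fits with a library left out. Of the 15 macrophage markers, between 6 and 9 were at 0 reads in each immortalized group, Adgre1, C1qa, C1qb, C1qc and Cx3cr1 among them. Of the 2 tested, Cd68 was called lower in MycKO than in WT and higher in MlxKO and DKO, and Cd14 higher in MlxKO. Without WT library 4 the calls were 1 lower in MycKO, 1 higher in MlxKO and 1 higher in DKO. The 15 markers summed to 5.80 to 7.30 CPM in MycKO, 7.73 to 8.83 CPM in WT, 10.3 to 12.4 CPM in MlxKO and 10.3 to 11.6 CPM in DKO. Their part in the Fabp4 differences was not tested.

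Cd36, at 0.392 CPM or above in each primary library, had 1 read in 1 immortalized MlxKO library and none in the other 11 libraries. Plin1 likewise had 1 read in a MlxKO library and Adipoq 1 read in a DKO library. Aoc3 had lost the pattern seen in primary cells. Its levels were 2.11, 3.16 and 0.426 CPM in WT, 1.16, 1.00 and 0.919 CPM in MlxKO, 1.28, 1.04 and 0.957 CPM in MycKO and 1.82, 1.30 and 0.994 CPM in DKO libraries. All groups overlapped and no comparison was called. The lowest value was that of WT library 4, and without it the difference from WT was called in MycKO (-0.78, limma adjusted p = 0.00381), MlxKO (-0.83, limma adjusted p = 0.00357) and DKO cells (-0.62, limma adjusted p = 0.0352). At these levels Aoc3 rested on 7 to 57 reads per library. The smooth muscle markers summed to between 8683 and 9176 CPM in immortalized MycKO, 5217 and 5566 CPM in DKO, 2696 and 2768 CPM in MlxKO and 1603 and 3215 CPM in WT libraries.

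**Figure D4:**
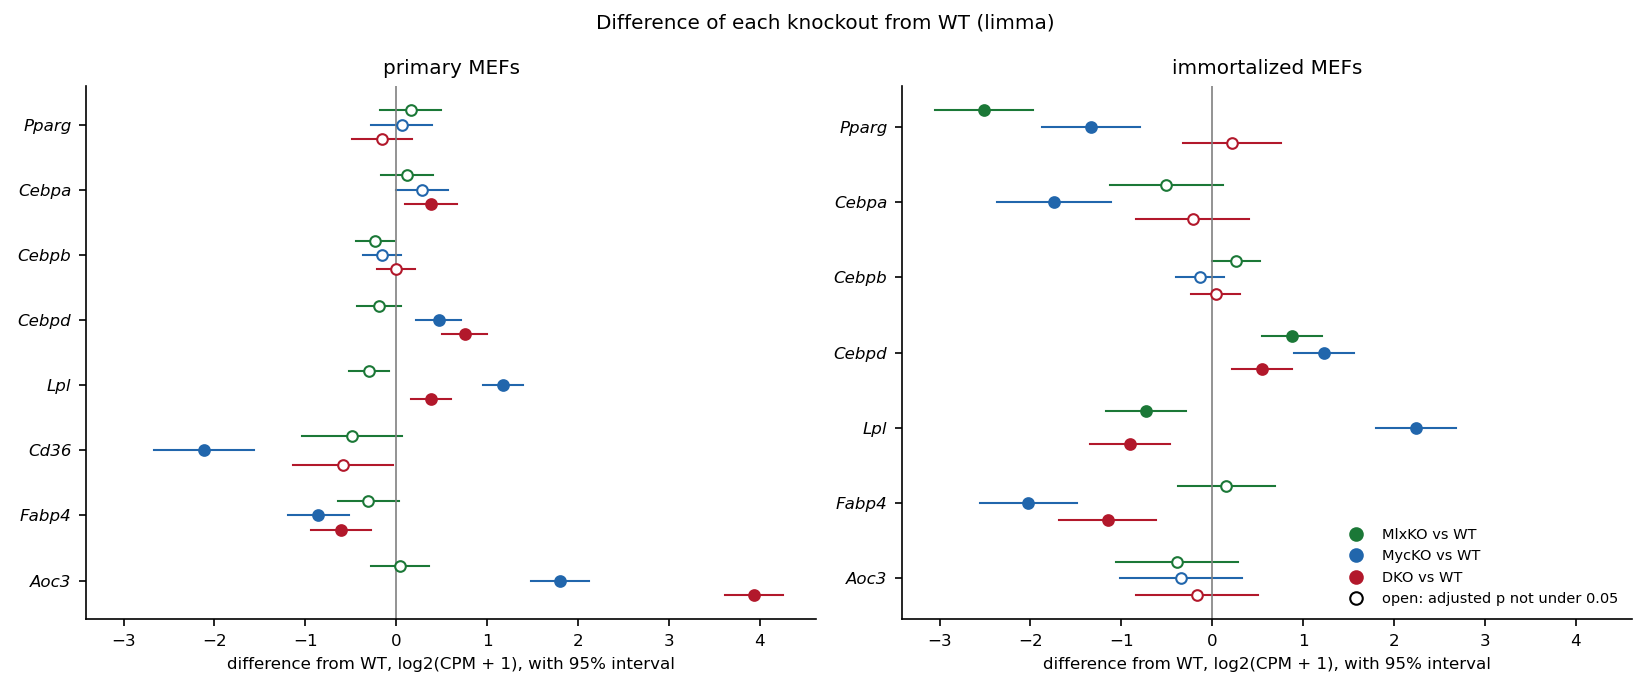
Difference of each knockout from WT on the log2(CPM + 1) scale with its 95% interval, for the lineage genes tested in primary (left) and immortalized (right) MEFs; filled points passed an adjusted p of 0.05 and open points did not. Aoc3 in primary DKO, at 3.93, and Pparg in immortalized MlxKO cells, at -2.51, are the values farthest from 0 on either side.

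Counted over the list, 5 of the 8 genes tested were called in primary MycKO cells (Lpl, Aoc3 and Cebpd higher, Cd36 and Fabp4 lower), beside 42.3% of all genes tested. In primary DKO cells 5 of 8 were called (Aoc3, Cebpd, Cebpa and Lpl higher, Fabp4 lower), beside 49.5% of all genes. Limma called none of the 8 in primary MlxKO cells, beside 8.88% of all genes. At an unadjusted p under 0.05 there were 2, Lpl and Cebpb, and edgeR called none and DESeq2 called 1, Lpl. Between primary DKO and MycKO cells 3 of 8 were called, beside 21.5% of all genes, and between DKO and MlxKO 3 of 8, beside 49.1%. In immortalized cells 5 of 7 were called in MycKO, beside 48% of all genes, 3 of 7 in MlxKO, beside 38.9%, and 3 of 7 in DKO, beside 18.9%. Without WT library 4 the counts were 6 in MycKO, beside 54% of all genes, 6 in MlxKO, beside 46.9%, and 4 in DKO, beside 22%. Immortalized DKO differed from MycKO in 5 of 7, beside 29.4%, and from MlxKO in 2 of 7, beside 30.1%. The median difference of the list from WT was 0.17 in primary MycKO, -0.21 in primary MlxKO and 0.19 in primary DKO cells, and -0.34, -0.38 and -0.17 in the same immortalized genotypes. The median over all genes tested lay between -0.018 and 0.0073 in every comparison.

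Whether the difference that went with Myc loss was another in cells lacking Mlx was tested as the Myc-by-Mlx interaction. This is the difference of DKO from MlxKO minus that of MycKO from WT. In primary cells it was called for 3 of 8 genes, beside 13.5% of all genes. Aoc3 had an interaction of 2.08 ± 0.21 (limma adjusted p = 5.02e-06), since the difference that followed Myc loss was 3.89 without Mlx and 1.81 with it. For Cd36 the same differences were -0.10 and -2.11, an interaction of 2.01 ± 0.37 (limma adjusted p = 0.00119), beside positive interactions of 13 of the 15 macrophage markers. Lpl had an interaction of -0.49 ± 0.15 (limma adjusted p = 0.0349), which was not called by edgeR (adjusted p = 0.0522) or with no filter on low values (limma adjusted p = 0.0871), and which was called in 4 of the 12 fits with a library left out.

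In immortalized cells the interaction was called for 4 of 7 genes, beside 47.4% of all genes. Pparg had the largest, 4.06 ± 0.35 (limma adjusted p = 5.43e-06). It changed by -1.34 with Myc loss in cells with Mlx and by 2.72 in cells without. Cebpa had an interaction of 2.03 ± 0.41 (limma adjusted p = 0.00173), Cebpd of -1.57 ± 0.22 (limma adjusted p = 0.000154) and Lpl of -2.42 ± 0.29 (limma adjusted p = 5.48e-05). Without WT library 4 these 4 values were 4.34, 2.36, -1.63 and -2.34, and Aoc3 was called too, at 1.00 (limma adjusted p = 0.00506), which made 5 genes beside 56.7% of all genes. Limma called no interaction of Fabp4 or Cebpb in either table, while DESeq2 called those of Cebpb and Cebpd in primary cells (adjusted p = 0.0478 and 0.0432) and of Fabp4 in immortalized cells (adjusted p = 0.0394).

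**Figure D5:**
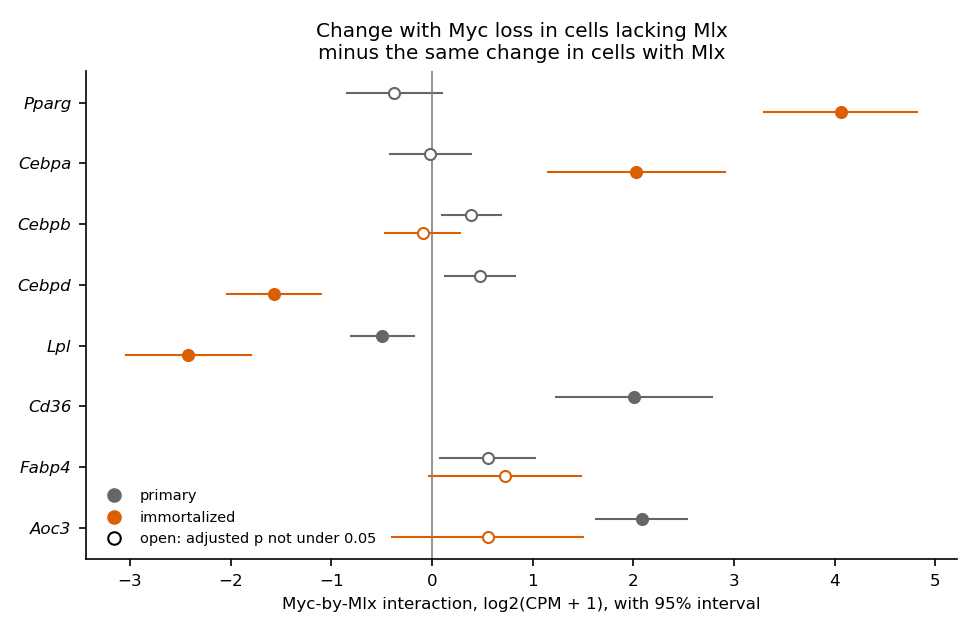
Myc-by-Mlx interaction of each lineage gene on the log2(CPM + 1) scale with its 95% interval, in primary (grey) and immortalized (orange) MEFs; filled points passed an adjusted p of 0.05. Aoc3 and Cd36 lie near 2 in primary cells and Pparg at 4.06 in immortalized cells, while Lpl is below 0 in both.

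The wider adipogenic programme was described with 9 further lists that hold 107 genes, each named gene being among the farthest from WT of its list. Of all genes tested, 20.4% were higher and 21.9% lower in primary MycKO, 3.75% higher and 5.14% lower in primary MlxKO and 24% higher and 25.5% lower in primary DKO cells. In immortalized cells the shares were 24.4% and 23.5% in MycKO, 19.1% and 19.9% in MlxKO and 10.4% and 8.51% in DKO. List counts in immortalized cells are given with and without WT library 4. Among adipogenic transcription factors and coregulators, 18 of 19 were tested. In primary MycKO cells 7 were higher and 1 lower, in MlxKO 1 was higher and in DKO 9 were higher and 2 lower, with medians of 0.20, 0.03 and 0.20. Klf4, which acts upstream of Cebpb, rose in MycKO from 84.9 to 188 CPM (1.13 ± 0.09, limma adjusted p = 5.14e-08). Ebf2, a factor of brown fat precursors, rose in DKO cells from 3.02 to 12.0 CPM (1.69 ± 0.16, limma adjusted p = 2.55e-07) and had a called interaction. Zfp423, which commits preadipocytes, rose in primary MycKO (1.21 ± 0.20) and in DKO cells (0.82 ± 0.20), and fell in immortalized MycKO cells (by 1.87 ± 0.37, and by 2.37 without WT library 4). In immortalized cells the list had 4 higher and 6 lower in MycKO, 2 higher and 4 lower in MlxKO and 1 higher and 3 lower in DKO cells, and without WT library 4 these were 4 and 8, 3 and 7, and 2 and 5. Prdm16, the brown fat coregulator, fell in both single knockouts, from 19.8 CPM in WT to 2.71 CPM in MycKO and 5.32 CPM in MlxKO (by 2.34 ± 0.33 and 1.57 ± 0.33, limma adjusted p = 0.000158 and 0.00377, and by 2.86 and 2.09 without WT library 4), and was called higher in DKO than in either.

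Of the 16 inhibitors of adipogenesis, 15 were tested. In primary cells 4 were higher and 4 lower in MycKO, 3 higher and 4 lower in MlxKO and 3 higher and 2 lower in DKO. Wnt5a, a secreted Wnt protein, rose in primary MycKO from 147 to 214 CPM (0.54 ± 0.06, limma adjusted p = 4.46e-06) and in immortalized MycKO cells from 43.6 to 215 CPM (2.33 ± 0.19, limma adjusted p = 1.89e-06, and 2.60 without WT library 4). Klf2 fell in primary MycKO (by 0.88 ± 0.13) and rose in immortalized DKO cells (by 1.57 ± 0.14, and by 1.48 without WT library 4). Dlk1, the preadipocyte factor that is shut off when fat cells form, fell in immortalized DKO cells from 11.7 to 0.621 CPM (by 2.86 ± 0.33, limma adjusted p = 0.000197, and by 2.63 without WT library 4) and rose in immortalized MlxKO cells to 22.2 CPM (0.94 ± 0.33, limma adjusted p = 0.0412, a call that edgeR did not make, at an adjusted p of 0.0545, and 1.16 without WT library 4). In immortalized cells 6 inhibitors were higher and 3 lower in MycKO, 5 higher and 3 lower in MlxKO and 3 higher and 1 lower in DKO, or 7 and 4, 8 and 5, and 6 and 2 without WT library 4.

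Of the 14 lipid droplet and lipolysis genes, 10 were tested. In primary cells 2 were higher in MycKO, 2 higher and 1 lower in MlxKO and 4 higher and 1 lower in DKO, and in immortalized cells 2 were higher and 1 lower, 2 higher and 2 lower, and 1 higher in the same order. Without WT library 4 the immortalized counts were 3 higher and 5 lower in MycKO and 1 higher and 4 lower in MlxKO, and the DKO call was lost. Mgll, the monoacylglycerol lipase that completes triglyceride breakdown, rose in primary MycKO from 24.2 to 80.1 CPM (1.69 ± 0.10, limma adjusted p = 3.35e-09) and in immortalized MycKO from 5.24 to 53.1 CPM (3.21 ± 0.27, limma adjusted p = 2.94e-06, and 3.55 without WT library 4), and fell in immortalized MlxKO cells to 1.17 CPM (by 1.46 ± 0.27, and by 1.11 without WT library 4). Like Lpl, it was lower in DKO than in MycKO cells in both tables. Plin2, the droplet coat protein of cells other than mature adipocytes, fell in primary DKO cells from 146 to 106 CPM (by 0.45 ± 0.07) and rose in immortalized MycKO cells from 76.8 to 152 CPM (0.99 ± 0.13, and 0.85 without WT library 4).

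Of the triglyceride synthesis genes, limma, edgeR and DESeq2 called none of 7 tested in primary MycKO cells, with 1 at an unadjusted p under 0.05, while 1 was higher in MlxKO and 2 were higher in DKO. In immortalized cells 4 of 8 were lower in MycKO, 2 lower in MlxKO and 2 lower in DKO, or 4, 4 and 3 without WT library 4. Lpin1, a phosphatidate phosphatase, fell in immortalized MycKO and DKO cells from 39.0 to 12.5 CPM (by 1.49 ± 0.27 and 1.47 ± 0.27, and by 1.88 and 1.87 without WT library 4), and Dgat2, which makes the final bond of triglyceride, from 6.98 to 2.28 CPM in MycKO (by 1.29 ± 0.16, and by 1.37 without WT library 4). For fatty acid and glucose entry, 3 of 7 genes were higher in primary MycKO, 1 lower in MlxKO, and 3 higher and 2 lower in DKO cells. In immortalized cells the counts were 2 higher and 2 lower, 2 higher and 1 lower, and 1 higher, or 3 and 2, 2 and 3, and 1 and 2 without WT library 4. Angptl4 rose in primary MycKO (0.71 ± 0.15) and DKO cells (0.73 ± 0.15), and fell in immortalized MycKO (by 1.54 ± 0.23) and MlxKO cells (by 1.11 ± 0.23), and by 1.86 and 1.42 without WT library 4.

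Of 11 adipokines and mature adipocyte products only 5 were tested, Adrb3, Cav1, Cavin1, Cavin2 and Nnat. The remaining 6, Lep, Retn, Cfd, Rbp4, Adig and Thrsp, did not pass the filter on low values in either table. In primary cells 2 were higher in MycKO and 2 lower in DKO, and in MlxKO limma, edgeR and DESeq2 called none, with 1 at an unadjusted p under 0.05. In immortalized cells all 5 were higher in MycKO and 4 in DKO, with WT library 4 or without it. Limma called none in immortalized MlxKO, with 1 at an unadjusted p under 0.05, DESeq2 called 1 and edgeR none, and without WT library 4 limma called 2 higher. Cav1, the coat protein of caveolae and abundant in fibroblasts too, rose in primary MycKO (0.44 ± 0.08) and immortalized MycKO (1.33 ± 0.17, and 1.53 without WT library 4) and fell in primary DKO cells (by 0.60 ± 0.08). Insulin and adipokine receptors had 5 of 7 higher in primary MycKO and 4 of 7 higher in primary DKO cells. Igf1r, the receptor for insulin-like growth factor, rose by 0.61 ± 0.07 in MycKO and by 0.45 ± 0.07 in DKO cells. In immortalized cells 4 were higher and 1 lower in MycKO and 3 higher in DKO, to which 1 lower in DKO was added without WT library 4. In MlxKO limma and edgeR called none in either table, with 1 primary and 2 immortalized genes at an unadjusted p under 0.05 and 1 immortalized gene called by DESeq2. Without WT library 4 limma called 1 higher and 1 lower there.

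Amine oxidases, the family by activity of Aoc3, had 6 of 8 tested higher in primary MycKO and 6 of 8 higher in primary DKO cells, and 2 lower in primary MlxKO cells. Their medians were 0.40, 0.41 and 0.02. Loxl2, which cross-links collagen, rose by 1.20 ± 0.07 in primary MycKO and by 1.22 ± 0.07 in primary DKO cells. Limma, edgeR and DESeq2 called an interaction for none of the 8 in primary cells, with 3 at an unadjusted p under 0.05. In immortalized cells 4 were higher and 2 lower in MycKO, 5 higher and 2 lower in MlxKO and 5 higher in DKO, or 4 and 3, 5 and 2, and 6 and 0 without WT library 4. Loxl3, another enzyme of this kind, rose by 3.14 ± 0.13 in immortalized MycKO cells, and by 3.02 without WT library 4. Preadipocyte and stromal progenitor genes had 5 of 9 higher and 2 lower in primary MycKO, 1 higher and 3 lower in MlxKO and 3 higher and 2 lower in DKO. In immortalized cells, where 8 were tested, 3 were higher and 1 lower in MycKO, 5 higher in MlxKO and 2 higher and 2 lower in DKO, or 3 and 3, 7 and 0, and 2 and 4 without WT library 4. Cd34, a surface protein of adipose progenitors, rose in immortalized MlxKO cells from 1.77 to 70.5 CPM (4.75 ± 0.25, limma adjusted p = 4.06e-07, and 4.56 without WT library 4), the genotype with the least Pparg.

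The remaining markers summed to less than the fibroblast markers. Skeletal muscle markers summed to between 65.4 and 138 CPM in primary libraries. In immortalized libraries they summed to between 191 and 232 CPM in MycKO and between 86.0 and 91.8 CPM in DKO. In immortalized WT the sums were 13.2 to 22.8 CPM and in MlxKO 9.85 to 11.5 CPM. Myod1, Myog and Myf5 were at 0 reads in every immortalized group. Only 1 of the 8 skeletal muscle markers passed the filter on low values there, and Des is also among the smooth muscle markers. Epithelial markers summed to between 1.95 and 19.9 CPM in primary and between 0.102 and 5.97 CPM in immortalized libraries. Endothelial markers summed to between 15.2 and 42.1 CPM in immortalized libraries. Of the 10 fibroblast markers, 8 were higher and 1 lower in primary MycKO, 2 higher and 1 lower in MlxKO and 7 higher and 2 lower in DKO cells.

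Genes whose levels over the 12 libraries of a table were most like those of 4 lineage genes were listed by Pearson's r of log2(CPM + 1), as a description, since the libraries fall into 4 genotypes. Aoc3 in primary cells was closest to Mylk (r = 0.996), the myosin light chain kinase of smooth muscle, Sfrp1 (0.995), a secreted Wnt antagonist, and Cd59a (0.989). Lpl in primary cells was closest to Susd2 (0.983), Pde8b (0.973) and Jam2 (0.971), and in immortalized cells to Sema6d (0.971), Cyp7b1 (0.970) and Cldn1 (0.969). Pparg in immortalized cells was closest to Prkaa2 (0.973), a catalytic subunit of AMP-activated kinase, to Exoc5 (0.964) and to Tmx4 (0.963), and Cebpa to Cldn19 (0.972), Rnf43 (0.963) and Kif21a (0.962). In primary cells, where Pparg and Cebpa varied little, the highest r was 0.883 for Pparg, with Tti2, and 0.916 for Cebpa, with Zfp523. Aoc3 in immortalized cells was closest to Gas6 (0.959), Mtmr3 (0.913) and Gata2 (0.908).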

How the data were processed

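RNA of primary and immortalized MEFs was sequenced as directional, poly-A selected libraries, which the authors aligned in CLC Genomics Workbench (build GRCm39). The deposited values are a CPM-like signal per gene, 24 columns in 2 tables. Columns summed to between 915691 and 1077213 rather than to a fixed total, by a scaling not given in the sources used here. The low values were whole multiples of 1 read for 100% of nonzero values (tolerance 0.05 reads), from which the depth of each library was recovered. Columns name the genotype and a library number that is not the labels' replicate number, so libraries were assigned to groups only.

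Values were tested as log2(CPM + 1) with limma 3.58.1 (R 4.3.3) with a mean-variance trend, 4 genotypes in 1 fit per table, for genes that reached 1 CPM in 3 or more libraries, with Benjamini-Hochberg adjustment over all genes. CPM had been assumed as the unit when the test was chosen, and limma was kept. The interaction is DKO - MlxKO - MycKO + WT. Alternatives were a pseudocount of 0.1, no filter, median-ratio scaling, library totals, a fit of only the groups compared, each library left out, and count models fitted to the recovered reads (DESeq2 1.42.0, edgeR 4.0.16). Per-kilobase levels used merged exons of GENCODE vM39, which listed 41181 of the genes. Ranks by canonical length were added after seeing the data. In the further lists, up to 3 called genes per direction with the largest difference qualified for naming, beside the 3 genes most like a lineage gene. Groups of 3 against 3 allow no exact p below 0.1, so single values were not permuted. The scripts were checked on simulated data. The lineage genes and all lists were chosen with earlier results of these data known.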

Additional observations from a re-analysis of the deposited data

Results flagged for a closer look

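For 7 values the difference that went with Myc loss was unlike in cells with and without Mlx by the limma interaction term. In primary cells these were Aoc3 (2.08) and Cd36 (2.01), whose differences were more positive without Mlx, and Lpl (-0.49), whose rise was smaller. In immortalized cells Pparg (4.06) was lower with Myc loss where Mlx was intact and higher, by 2.72, where Mlx was lost. For Cebpa (2.03) a fall was called only with Mlx intact. For Lpl (-2.42) and Cebpd (-1.57) a rise was called only there. Between the tables, every DKO library lay above every WT library for Lpl in primary cells (0.38) and below it in immortalized cells (-0.91), a difference between the tables that was not tested.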

How the results depend on the processing

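Of the called values of the lineage genes, 17 of 19 in primary and 17 of 22 in immortalized cells kept their call under each alternative, and the others are named with the results above. Counts of lineage genes called moved as follows. In primary MlxKO against WT (0), 1 was called with only the groups compared and 1 by DESeq2, and 0 to 2 with a library left out (2 without MycKO library 10). In primary DKO against MlxKO (3), library totals gave 5, only the groups compared 5 and a library left out 3 to 5 (5 without MlxKO library 5 or MycKO library 10). The primary interaction (3) had 5 by DESeq2 and 2 to 4 with a library left out. Immortalized MlxKO against WT (3) had 2 to 6 with a library left out (6 without WT library 4), DKO against WT (3) had 1 with only the groups compared and 1 to 4 with a library left out (1 without DKO library 13), and DKO against MlxKO (2) had 4 with library totals.

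No called value changed sign. Under library totals the sign turned for Pparg in primary MycKO (-0.023), Cebpb in primary DKO (-0.083) and the Mlx interaction in primary (-0.0033) and immortalized cells (-0.015). It turned for the primary Mlx interaction with a pseudocount of 0.1 (-0.0059), for Cd36 in primary DKO against MlxKO by edgeR (0.0065) and DESeq2 (0.0079), and for Myc in immortalized MlxKO by edgeR (-0.15) and DESeq2 (-0.17). With a library left out, values that crossed 0 in primary cells were Pparg in MycKO (-0.064 to 0.20), Aoc3 in MlxKO (-0.11 to 0.21), Cebpb in DKO (-0.08 to 0.073), Cebpa and Cd36 in DKO against MycKO (-0.053 to 0.20) and MlxKO (-0.47 to 0.15), and the interactions of Cebpa (-0.17 to 0.091) and Mlx (-0.081 to 0.098). In immortalized cells they were Fabp4 (-0.073 to 0.49) and Myc (-0.24 to 0.82) in MlxKO, Cebpb (-0.073 to 0.14), Pparg (-0.069 to 0.47), Cebpa (-0.55 to 0.14) and Aoc3 (-0.62 to 0.16) in DKO, and the Cebpb interaction (-0.20 to 0.0088). The cause was not tested. Library totals moved the median of all genes by over 0.1 in primary DKO against MlxKO (-0.12), immortalized MlxKO against WT (0.16), DKO against MlxKO (-0.16) and the interaction (-0.18).

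No paired analysis was possible because no source links a column's library number to a labelled replicate. Genes near 1 CPM, such as Lpl and Aoc3 in immortalized cells, rest on few reads. Cells of several embryos were pooled, and whether the libraries measure the spread between separate cultures is not given in the sources used here.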
